A study of Homo sapiens with 6 samples.

Results

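Expression of 10 genes encoding collagen chains outside the fibrillar and basement membrane classes was examined in LX-2 cells after silencing of OGT. The genes were COL6A1, COL6A2 and COL6A3 (type VI), COL7A1 (type VII), COL8A1 (type VIII), COL9A2 (type IX), COL12A1 (type XII), COL13A1 (type XIII), COL16A1 (type XVI) and COL17A1 (type XVII). They were taken by symbol from a list of non-fibrillar interstitial and transmembrane collagens that was drawn up with earlier results of these data known. All 10 were found among the 16907 gene symbols of the count files. LX-2 is an immortalised human line of hepatic stellate origin, and stellate cells turn into collagen-producing myofibroblasts during liver fibrosis. Cells grown in 5% serum were transfected for 72 h with 20 nM of a non-targeting siRNA (siControl) or of siRNA against OGT (siOGT), the enzyme that adds O-linked N-acetylglucosamine to intracellular proteins, and each group had 3 libraries that the labels describe as biological replicates. Per the study's methods, siControl was a single Silencer Select siRNA and siOGT an ON-TARGETplus pool from another supplier, so that the chemistry of the siRNA and the loss of OGT cannot be told apart here. All groups came from the same line, and no untransfected cells were analysed here.

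Collagens outside the fibrillar class have triple helices that are interrupted or flanked by large non-collagenous domains, and they connect fibrils, cells and basement membranes rather than forming the banded fibrils themselves. Type VI chains assemble into beaded microfibrils, FACIT collagens (fibril-associated collagens with interrupted triple helices) decorate the surface of fibrils, type VII forms anchoring fibrils, type VIII forms networks, and types XIII and XVII cross the plasma membrane. In injured liver, such collagens are deposited in the scar alongside fibrillar types I and III, with stellate cells and portal fibroblasts as known sources of several of them.

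The libraries held between 25996770 and 27966801 expected counts, that is, counts estimated by the read counter, which divides a read that matches several genes. OGT itself had 177, 137 and 121 CPM (counts scaled to a common library size) in siControl 1, 2 and 3 and 39.9, 27.0 and 29.2 CPM in siOGT 1, 2 and 3, so that from 19.7% to 24.1% of the siControl level remained in a pair. Its log2 fold change was -2.18 (SE 0.073, adjusted p = 2.71e-12 by edgeR). Of 8 stellate cell markers, 7 averaged at least 1 CPM, with DES (desmin) between 0 and 0.224 CPM and ACTA2 between 4.73 and 9.69 CPM. The summed level of this list was 5211 to 5499 CPM in siControl and 5589 to 6213 CPM in siOGT. It came mostly from VIM (2991 to 3282 CPM over all libraries, not called) and SPARC (1375 to 2465 CPM), so it does not describe the list as a set. After their values were seen, PDGFRB, THY1 and S100A6 were found lower, and TAGLN and SPARC higher, in siOGT.

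Most of the 10 genes were expressed at lower levels when OGT was silenced. Of the 10 genes, all of which passed the filter on low counts, 9 were called lower in siOGT, 0 higher, and 1 was not called, where called means an adjusted p from edgeR no higher than 0.05. Among all 14853 tested genes the share was 12.7% lower and 12.7% higher, and 15.0% lower among those averaging at least 1 CPM, as all 10 members did. The median log2 fold change of the 10 genes was -0.47, against 0.0068 over all genes tested. Because the 10 genes were chosen with earlier results of these data known, these shares are a description, and no set test was run. In 8 of the 10 genes siOGT was lower in all 3 pairs of same-numbered libraries (26.6% of all genes tested), and in 5 of them every siOGT library lay below every siControl library (11.8% of all genes tested). A decrease of at least 2-fold was measured for COL6A3 and COL9A2, a size that 0.491% of all genes tested reached with a call. Fewer cells of a type and less RNA per cell cannot be told apart in such bulk RNA. These calls rested on the pairing of libraries by replicate number: in a fit without the replicate block, which called 0.397% of all genes lower, COL16A1 alone of the 10 kept its call. With the block, the members called lower numbered 9 with median-ratio scaling, no filter or a GC and length correction (12.7%, 12.0% and 13.6% of all genes), 8 with library totals, filterByExpr or DESeq2 (10.9%, 13.8% and 8.74%), and 7, 9 and 7 without replicate 1, 2 or 3 (6.54%, 11.4% and 12.4%).

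**Figure D1:**
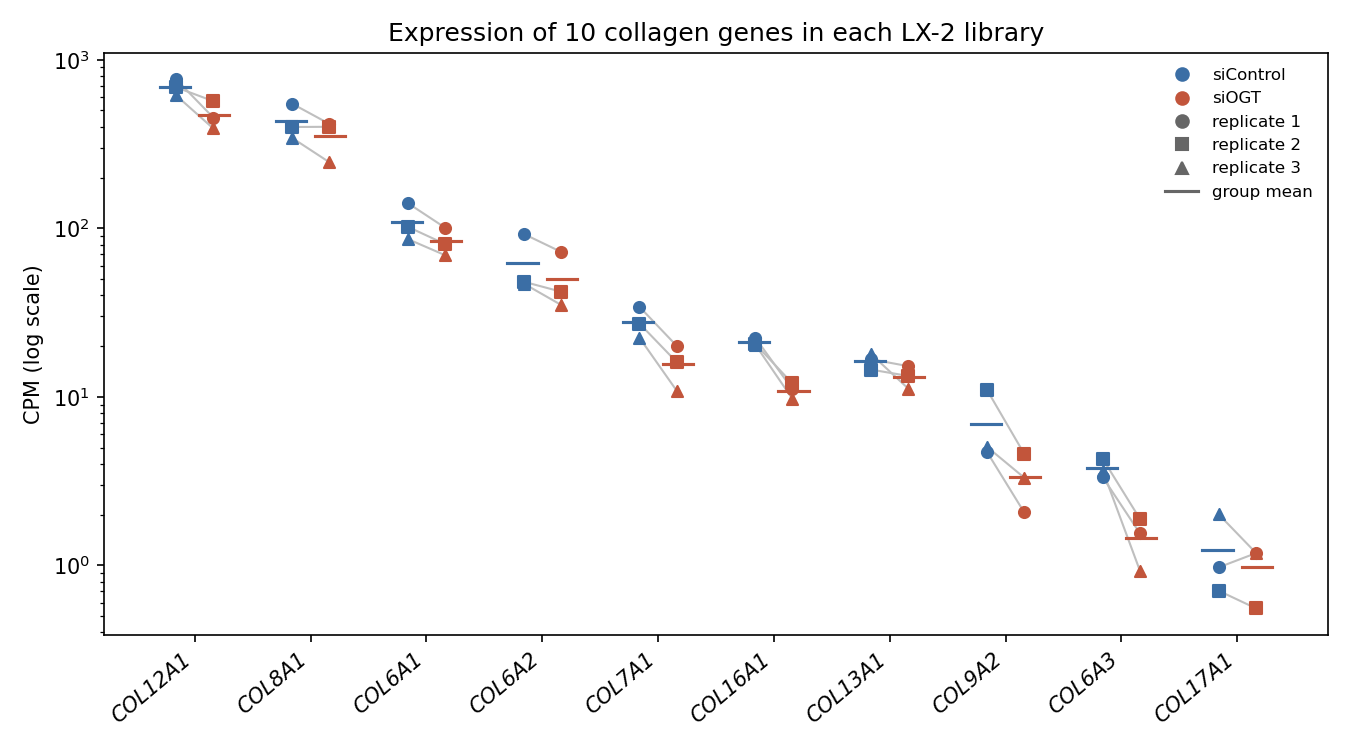
Expression of the 10 collagen genes in CPM (vertical axis, log scale) in each library, with siControl in blue, siOGT in red, symbols for replicates 1 to 3, grey lines joining the 2 libraries of a pair and horizontal bars at group means. Groups did not overlap for COL12A1, COL7A1, COL16A1, COL9A2 and COL6A3, whereas COL17A1 was higher in siOGT in 1 pair.

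Promoter sequences from RefSeq (GRCh38.p14) were read for the members that had an entry, 8 of 10, and searched for 6 short motifs over 250 bases before and 50 bases after the annotated start. The 4 shown here are the 250 bases before the start of COL12A1, the only one of the 8 with a TEAD core, of COL16A1 and COL7A1, which had the smallest p-values, and of COL17A1, which was not called. TEAD factors are transcription factors that work with the coactivator YAP1. All 4 genes are on the minus strand, and the sequences are written 5′ to 3′ on that strand. Capitals mark the letters of a TEAD core (GGAATG or CATTCC), a GC box (GGGCGG or CCGCCC) or a TATA box (TATAAA or TTTATA). Letters were matched on either strand and at any position, and whether a match acts as an element was not tested. RefSeq starts can differ from the gene ends of GENCODE 44 given below.
COL12A1 (chr6:75206054-75206303): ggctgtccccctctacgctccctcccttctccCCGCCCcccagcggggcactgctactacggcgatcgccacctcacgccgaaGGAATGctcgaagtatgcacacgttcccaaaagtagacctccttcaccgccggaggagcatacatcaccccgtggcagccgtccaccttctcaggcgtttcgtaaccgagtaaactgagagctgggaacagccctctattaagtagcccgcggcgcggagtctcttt
COL16A1 (chr1:31704018-31704267): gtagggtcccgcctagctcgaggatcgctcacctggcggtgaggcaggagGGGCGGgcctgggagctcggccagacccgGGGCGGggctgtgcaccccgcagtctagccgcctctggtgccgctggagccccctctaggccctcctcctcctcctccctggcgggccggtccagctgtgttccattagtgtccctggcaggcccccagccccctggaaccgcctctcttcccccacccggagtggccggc
COL7A1 (chr3:48595330-48595579): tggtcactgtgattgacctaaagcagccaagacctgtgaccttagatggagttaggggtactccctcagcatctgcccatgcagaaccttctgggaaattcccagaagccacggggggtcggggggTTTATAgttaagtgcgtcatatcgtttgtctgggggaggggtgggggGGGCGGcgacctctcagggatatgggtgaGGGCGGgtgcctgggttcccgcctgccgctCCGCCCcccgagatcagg
COL17A1 (chr10:104085881-104086130): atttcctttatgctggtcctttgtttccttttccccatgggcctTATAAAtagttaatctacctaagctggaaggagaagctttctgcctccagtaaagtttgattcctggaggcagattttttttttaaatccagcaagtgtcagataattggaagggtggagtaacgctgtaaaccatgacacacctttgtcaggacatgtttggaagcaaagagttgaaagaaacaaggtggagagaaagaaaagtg
The TEAD core of COL12A1 began 167 bases before the start. It was present in 14.0% of 35116 promoter windows of the same length, and in 1 of the 8 members. GC boxes were found in 5 members (COL6A2, COL7A1, COL9A2, COL12A1 and COL16A1) and in 45.0% of all windows. The TATA box letters were found in 4 members and in 11.5% of all windows. They lay 32 bases before the start in COL6A2, and 124, 236 and 206 bases before it in COL7A1, COL13A1 and COL17A1. Position was not part of the match, so these are not counts of TATA boxes placed to set the start. The SMAD element CAGAC (or GTCTG), part of the sequence bound by effectors of TGF-β, was found in 6 members and in 45.3% of all windows. COL17A1 alone held the letters CCAAT (or ATTGG), which were in 34.6% of all windows. The AP-1 letters TGANTCA were in 0 of the 8 members and in 7.71% of all windows. GC content of the printed stretches was 61.2% for COL12A1, 73.2% for COL16A1, 60.8% for COL7A1 and 40.4% for COL17A1.

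Type VI collagen was examined first, because its chains are made by 3 genes among the members. An α1, an α2 and an α3 chain, encoded by COL6A1, COL6A2 and COL6A3, join into a heterotrimer. COL6A1 (chr21:45981770-46005050, plus strand, GENCODE 44, hg38) and COL6A2 (chr21:46098112-46132848, plus strand) lie 93.1 kb apart, whereas COL6A3 (chr2:237324003-237414328, minus strand) is on another chromosome. COL6A1 had 141, 102 and 86.3 CPM in siControl 1, 2 and 3 and 101, 80.7 and 69.3 CPM in siOGT 1, 2 and 3. It was lower in every pair but the groups overlapped, since siOGT 1 lay near siControl 2 and above siControl 3. Its log2 fold change was -0.38 (95% interval -0.52 to -0.24, SE 0.066, adjusted p = 4.76e-04 by edgeR), and 71.4%, 79.4% and 80.3% of the siControl level remained in the 3 pairs.

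COL6A2 had 92.6, 48.2 and 47.0 CPM in siControl and 72.6, 42.1 and 35.2 CPM in siOGT. Replicate 1 was the highest library in both groups, so that siOGT 1 exceeded siControl 2 and 3 although each pair was lower. This gave a log2 fold change of -0.32 (95% interval -0.47 to -0.17, SE 0.070, adjusted p = 0.00284 by edgeR). COL6A3 encodes the largest type VI chain, whose C-terminal fragment is the circulating peptide endotrophin. It was present at few reads, with 89, 109 and 102 expected counts in siControl and 42, 51 and 25 in siOGT, which is 3.33, 4.28 and 3.65 CPM against 1.55, 1.89 and 0.932 CPM. Every siOGT library was below every siControl library, and siOGT 3 was the lowest. COL6A3 had the largest decrease among the 10 genes, with a log2 fold change of -1.38 (95% interval -1.86 to -0.90, SE 0.23, adjusted p = 3.22e-04 by edgeR), and 46.7%, 44.3% and 25.5% remained in the 3 pairs. Without replicate 3 it was -1.14, less than the -1.23 of COL9A2 in that fit.

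Because the type VI chains assemble together, the ratio of their counts within each library was compared between groups, a measure that does not depend on library scaling. COL6A2 counts were 65.6%, 47.4% and 54.5% of COL6A1 counts in siControl and 72.0%, 52.1% and 50.8% in siOGT. This ratio rose in pairs 1 and 2 and fell in pair 3, with a mean log2 difference of 0.06 ± 0.14 (SD, n = 3 pairs, exact permutation p = 0.5). COL6A3 counts were 2.36%, 4.21% and 4.23% of COL6A1 counts in siControl and 1.54%, 2.35% and 1.35% in siOGT. The ratio of COL6A3 to COL6A1 fell in every pair, by a mean log2 difference of -1.04 ± 0.55 (SD, n = 3 pairs), although siControl 1 and siOGT 2 had nearly the same ratio. The ratio of COL6A3 to COL6A2 went from 3.59%, 8.89% and 7.77% to 2.14%, 4.51% and 2.65%, a mean log2 difference of -1.09 ± 0.41 (SD, n = 3 pairs). For both ratios the two-sided exact permutation p was 0.25, the smallest that 3 pairs allow, and 0.375 after Benjamini-Hochberg adjustment over the 3 ratios.

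**Figure D2:**
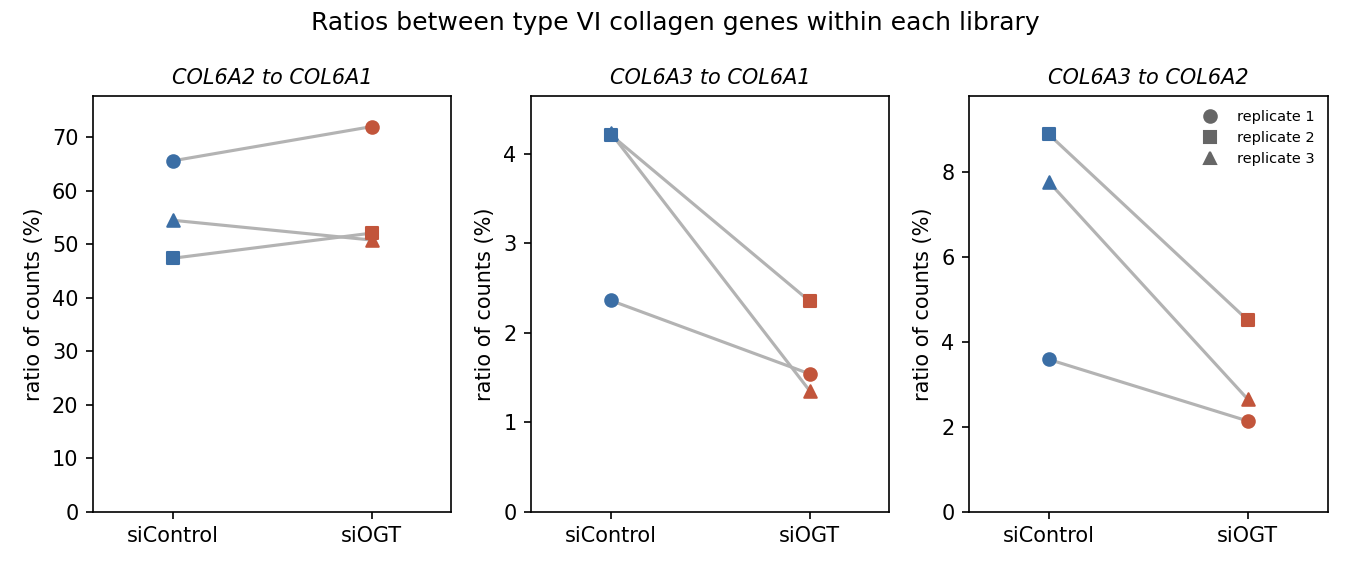
Ratio of expected counts between type VI collagen genes within each library, in percent (vertical axes, from 0), for siControl (blue) and siOGT (red), with grey lines joining the libraries of a pair. The ratio of COL6A2 to COL6A1 moved in both directions, while the ratios of COL6A3 to COL6A1 and to COL6A2 fell in all 3 pairs.

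Among the FACIT collagens, COL12A1, COL16A1 and COL9A2 were called lower with groups that did not overlap. COL12A1 (chr6:75084326-75206267, minus strand) encodes a long molecule that bridges fibrils of type I collagen and other matrix components. It had 764, 686 and 614 CPM in siControl and 454, 568 and 391 CPM in siOGT. The highest siOGT library, siOGT 2, was below the lowest siControl library, siControl 3. The mean fell from 688 ± 74.9 to 471 ± 90.2 CPM (SD, n = 3 each), with a log2 fold change of -0.56 (SE 0.082, adjusted p = 1.07e-04 by edgeR). Pair 2 showed the smallest decrease, with 82.9% of the siControl level remaining, against 59.4% in pair 1 and 63.6% in pair 3.

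COL16A1 (chr1:31652263-31704319, minus strand), which encodes a minor component of fibrils and microfibrils, had the smallest p-value of the members and ranked 57 among all genes tested. Its values were 22.4, 20.6 and 20.4 CPM in siControl and 11.1, 12.0 and 9.73 CPM in siOGT. Libraries of one group lay close together and far from those of the other. Of the variance of its log2 CPM, 95.9% lay between the groups and 2.45% between replicate numbers. COL16A1 had a log2 fold change of -0.95 (95% interval -1.15 to -0.75, SE 0.095, adjusted p = 2.92e-06 by edgeR), and without the replicate block the adjusted p-value was 0.0201.

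COL9A2 (chr1:40300489-40317813, minus strand) encodes 1 of the 3 chains of type IX collagen, a FACIT best known from cartilage. It had 126, 279 and 141 expected counts in siControl and 56, 124 and 89 in siOGT, which is 4.71, 11.0 and 5.05 CPM against 2.07, 4.61 and 3.32 CPM. Replicate 2 was highest in both groups, and siOGT 2 lay just under siControl 1. For COL9A2 this was a log2 fold change of -1.02 (95% interval -1.36 to -0.68, SE 0.16, adjusted p = 2.32e-04 by edgeR). Without replicate 2 it was -0.88. The other type IX gene in the files, COL9A3, had at most 5 counts in a library.

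COL7A1 and COL17A1 encode collagens that in skin hold the epidermis to the dermis. COL7A1 was called lower and COL17A1 was not called, and the difference between them was not tested. COL7A1 (chr3:48564073-48595329, minus strand) encodes the homotrimeric chain of anchoring fibrils. It had 34.2, 27.2 and 22.4 CPM in siControl and 20.1, 16.1 and 10.9 CPM in siOGT. Replicate 1 was highest and replicate 3 lowest in both groups, and the highest siOGT library was below the lowest siControl library. The estimate for COL7A1 was a log2 fold change of -0.85 (95% interval -1.03 to -0.66, SE 0.087, adjusted p = 4.06e-06 by edgeR), and 59.0%, 59.0% and 48.7% remained in the 3 pairs.

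COL17A1 (chr10:104031286-104085880, minus strand) encodes the transmembrane collagen of hemidesmosomes, the junctions that hold epithelial cells to the basement membrane. It was measured from few reads, with 26, 18 and 56 expected counts in siControl and 32, 15 and 32 in siOGT. It was higher in pair 1 and lower in pairs 2 and 3, with overlapping groups. The log2 fold change of -0.29 (95% interval -0.98 to 0.40, adjusted p = 0.568 by edgeR) was not called. At this depth a decrease of nearly 2-fold and an increase of up to 0.40 on the log2 scale were both within its error. Without replicate 3 the log2 fold change was 0.02. Of 4 markers of stratified epithelium, TP63 alone averaged at least 1 CPM, KRT5, KRT14 and CDH1 did not exceed 0.269 CPM in a library, and the list summed to 3.03 to 3.90 CPM in siControl and 2.83 to 5.23 CPM in siOGT.

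COL8A1 and COL13A1 had the weakest calls. COL8A1 (chr3:99638475-99799226, plus strand) encodes the α1 chain of type VIII, a short-chain collagen that forms networks under endothelial cells and in remodelling vessel walls. It had 549, 399 and 344 CPM in siControl and 417, 400.0 and 247 CPM in siOGT. Pair 2 was level, with 100.3% of the siControl value remaining, whereas pairs 1 and 3 fell to 76.0% and 71.8%. COL8A1 had an estimated log2 fold change of -0.29 (SE 0.082, adjusted p = 0.0150 by edgeR), a call that was lost without replicate 1 (0.183) and without replicate 3 (0.0791). The partner chain gene COL8A2 was not called and had at most 24 counts in a library. Of 3 endothelial markers measured, which summed to 3.18 to 7.69 CPM in siControl and 3.06 to 5.65 CPM in siOGT, VWF was called lower, as seen after the test, and its part in the COL8A1 result was not tested.

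COL13A1 (chr10:69801880-69964275, plus strand) encodes a type II transmembrane collagen of focal adhesions and neuromuscular junctions. It had 16.7, 14.5 and 17.9 CPM in siControl and 15.2, 13.3 and 11.2 CPM in siOGT. The groups overlapped, as siOGT 1 exceeded siControl 2. Pairs 1 and 2 kept 91.2% and 91.8% of the siControl level, and pair 3 kept 62.6%. The fitted log2 fold change was -0.31 (SE 0.11, adjusted p = 0.0479 by edgeR). Without replicate 3 it was -0.13 (adjusted p-value 0.395), and the adjusted p also passed 0.05 without replicate 1 (0.0541), with library totals in place of TMM scaling (0.0720), with the filterByExpr filter (0.0598) and with DESeq2 (0.166).

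**Figure D3:**
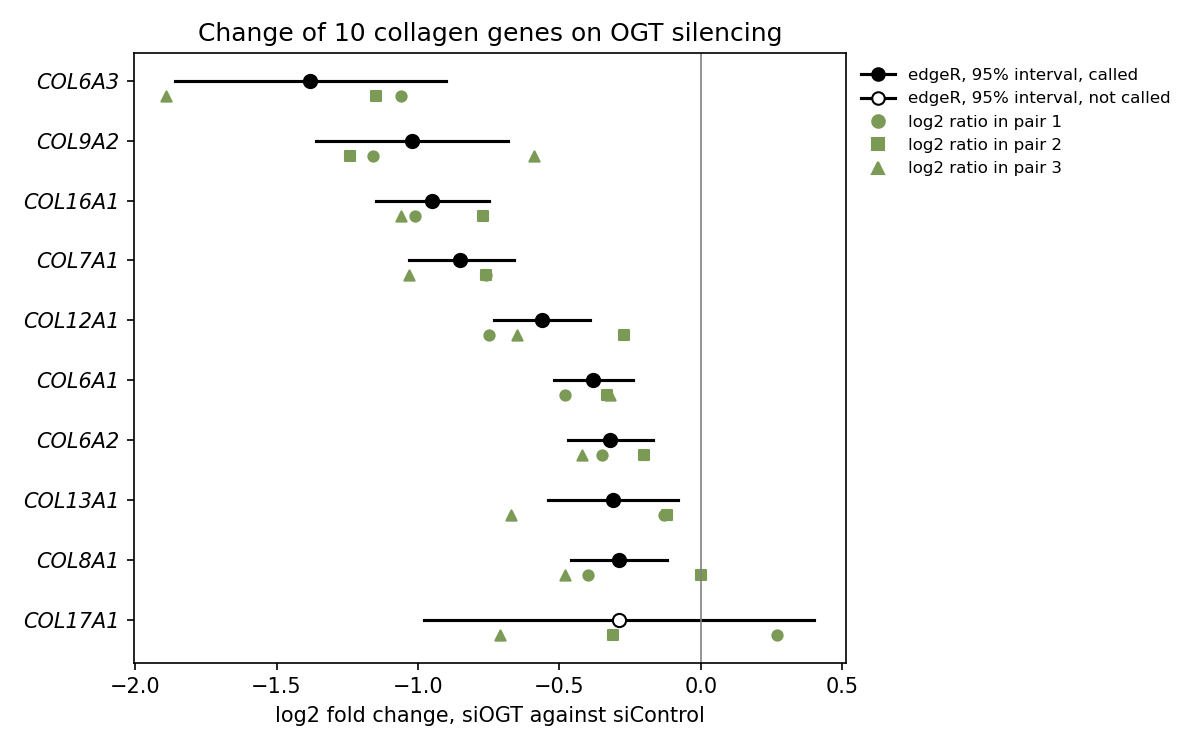
Log2 fold change of siOGT against siControl (horizontal axis) for the 10 genes, as the edgeR estimate with its 95% confidence interval (black, open where not called) and the log2 ratio in each pair (green). Intervals of 9 genes lay below 0, and that of COL17A1 ran from -0.98 to 0.40.

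The estimated changes of the called members spanned a range. The 95% confidence intervals of COL6A3, COL9A2, COL16A1 and COL7A1 ended at or below -0.66 on the log2 scale, whereas those of COL6A1, COL6A2, COL8A1 and COL13A1 began at or above -0.54. The interval of COL12A1, from -0.73 to -0.39, overlapped both sets, and the difference between these sets, which were formed after the intervals were seen, was not tested. Replicates also shaped the values. The lowest siOGT library was replicate 3 in 8 of the 10 genes, and the smallest decrease was in pair 2 in 6 of them. Among these 6 was COL7A1, in which pairs 1 and 2 both kept 59.0%. Neither count was made over all genes tested, and whether they reflect the libraries or these genes was not tested. The share of variance in log2 CPM that lay between replicate numbers was 87.7% for COL6A2, 81.4% for COL17A1, 73.2% for COL8A1 and 64.3% for COL6A1, but 10.6% for COL6A3 and 20.1% for COL12A1. The summed level of the 10 genes was 1162 to 1629 CPM in siControl and 779 to 1139.7 CPM in siOGT. It came mostly from COL12A1 (614 to 764 CPM in siControl, 391 to 568 CPM in siOGT) and COL8A1 (344 to 549 and 247 to 417 CPM). The sum therefore does not describe the 10 genes as a set.

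**Figure D4:**
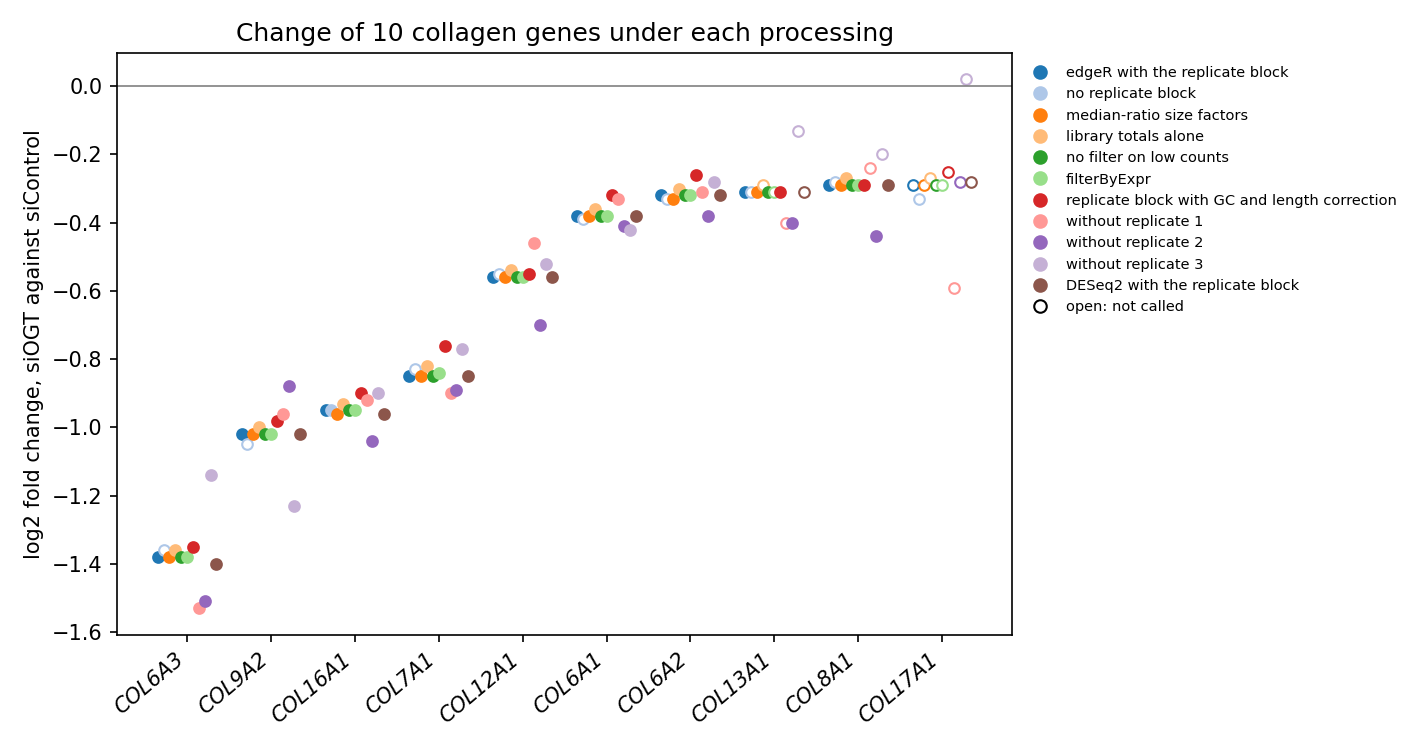
Log2 fold change of siOGT against siControl (vertical axis) for the 10 genes under each way of processing, filled where called. COL6A3, COL9A2, COL16A1, COL7A1 and COL12A1 stayed between -1.53 and -0.46 under every alternative run, while COL17A1 reached 0.02 without replicate 3.

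To place the genes by abundance, levels were divided by the length of all exons of a gene, in CPM per kb in siControl. COL8A1 had the highest level per length, 45.8 ± 11.3 CPM per kb, followed by COL12A1 with 36.5 ± 3.97 CPM per kb (SD, n = 3 each), and their ranges overlapped. COL6A1 with 19.8 ± 5.12 and COL6A2 with 11.7 ± 4.87 CPM per kb came next and overlapped each other, below the range of COL12A1. COL7A1 (2.51 ± 0.533), COL16A1 (2.29 ± 0.122), COL9A2 (1.64 ± 0.833) and COL13A1 (1.42 ± 0.151 CPM per kb) formed a lower set in which neighbours overlapped. COL17A1 and COL6A3 were lowest, with 0.176 ± 0.0982 and 0.175 ± 0.0225 CPM per kb. Per length of the longest transcript, COL13A1 moved from place 8 to place 5 with 4.81 CPM per kb, so the order within the lower set depended on the gene model. Thus COL6A3 was measured at a far lower level per length than the genes of its partner chains COL6A1 and COL6A2. Other annotated genes shared exonic bases with 3 members, namely MIR711 with 0.323% of COL7A1, PEF1-AS1 on the opposite strand with 1.26% of COL16A1 and MIR936 with 0.229% of COL17A1, and none of these was in the files.

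Genes whose levels followed those of COL16A1 most closely over the 6 libraries were NASP, a histone chaperone, with a Pearson r of 0.9998 for log2 CPM, ANXA6, a membrane-binding annexin, with 0.9963, and GNG2, a G protein subunit, with 0.9953. These were the highest of 12372 genes, and each r describes 6 libraries in 2 groups in which all genes share the library scaling. Of the variance of COL16A1, 95.9% lay between the groups. The log2 fold changes of NASP, ANXA6 and GNG2 were -0.36, -0.38 and -0.45, against -0.95 for COL16A1. GNG2 was not called (adjusted p = 0.0733 by edgeR). Of the other members, COL6A3 (r = 0.95) and COL12A1 (0.93) followed COL16A1 most closely, at rank 154 and 348, and COL17A1 least (0.11).

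Other genes that act with these collagens were read from the same fit, which called 12.7% of all genes tested lower and 12.7% higher. Of 15 further non-fibrillar collagen genes listed, 10 were in the files, 5 passed the filter and 0 were called, none having more than 24 counts in a library. At an unadjusted p-value of 0.0182 COL26A1 was the one of them below 0.05, as seen after the fit, with 1, 0 and 0 counts in siControl and 4, 1 and 11 in siOGT. Of 9 receptors and matrix partners of type VI collagen tested, 2 were called lower, 1 higher and 6 were not called, with a median log2 fold change of -0.15. ITGA1, the α subunit of a collagen-binding integrin, fell from 36.2, 39.9 and 30.4 CPM to 22.3, 31.0 and 18.3 CPM (log2 fold change -0.59, adjusted p = 8.01e-05 by edgeR). FN1 (fibronectin) had a log2 fold change of -0.28 (adjusted p = 0.0377 by edgeR), with pair 2 higher in siOGT, and CSPG4, the proteoglycan NG2, one of 0.22 (0.0391). Both calls depended on single pairs, that of FN1 being lost without replicate 1 (0.331) or 3 (0.244) and that of CSPG4 without replicate 1 (0.296) or 2 (0.290). With all pairs kept, the FN1 call was also lost with DESeq2 (0.345), library totals (0.0591) and filterByExpr (0.0569).

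Of the 8 genes of the anchoring complex around types VII and XVII, 3 were called lower, 2 higher and 3 were not called. Their median log2 fold change was -0.10, and among all genes tested 12.7% were called lower and 12.7% higher. ITGA6, the α6 integrin subunit of hemidesmosomes, rose from 114, 105 and 134 CPM to 172, 142 and 156 CPM, with every siOGT library above every siControl library (log2 fold change 0.42, adjusted p = 5.05e-04 by edgeR). PLEC (plectin), which links the same junctions to keratin filaments, fell from 590.2, 598 and 621 CPM to 498, 508 and 433 CPM, also without overlap (log2 fold change -0.33, adjusted p = 0.00270 by edgeR). LAMA3, the α3 chain of the laminin in these junctions, had a log2 fold change of -0.45 (adjusted p = 0.0142 by edgeR). This call was lost without replicate 1 (0.0744) or 3 (0.128) and with DESeq2 (0.0722). Genes of this complex therefore did not share a direction.

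Over all genes tested 12.7% were called lower and 12.7% higher, so that 1 call in a short list describes no trait of that list. Of 8 proteases that cleave or shed members, TLL1, a procollagen processing enzyme related to BMP1, was the only one called. It fell from 35.6, 39.8 and 34.2 CPM to 22.8, 34.9 and 24.7 CPM (log2 fold change -0.43, adjusted p = 0.00147 by edgeR), and siOGT 2 lay above siControl 3. FURIN and the ADAM sheddases of transmembrane collagens, ADAM9, ADAM10 and ADAM17, had log2 fold changes between -0.06 and 0.15 and were not called. The median over the 8 genes was -0.01, and -0.05 over the 7 averaging at least 1 CPM. Of 5 partners of FACIT collagens tested, TNXB (tenascin X) alone was called and was higher, with 44.7, 34.9 and 43.7 CPM in siControl and 52.5, 47.6 and 47.4 CPM in siOGT (log2 fold change 0.27, adjusted p = 0.0156 by edgeR). That call was lost without replicate 1 (0.0731) or 2 (0.182) and with DESeq2 (0.0564). The median of the list was 0.27, and -0.02 over the 3 genes averaging at least 1 CPM, since the remaining genes had few counts.

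**Figure D5:**
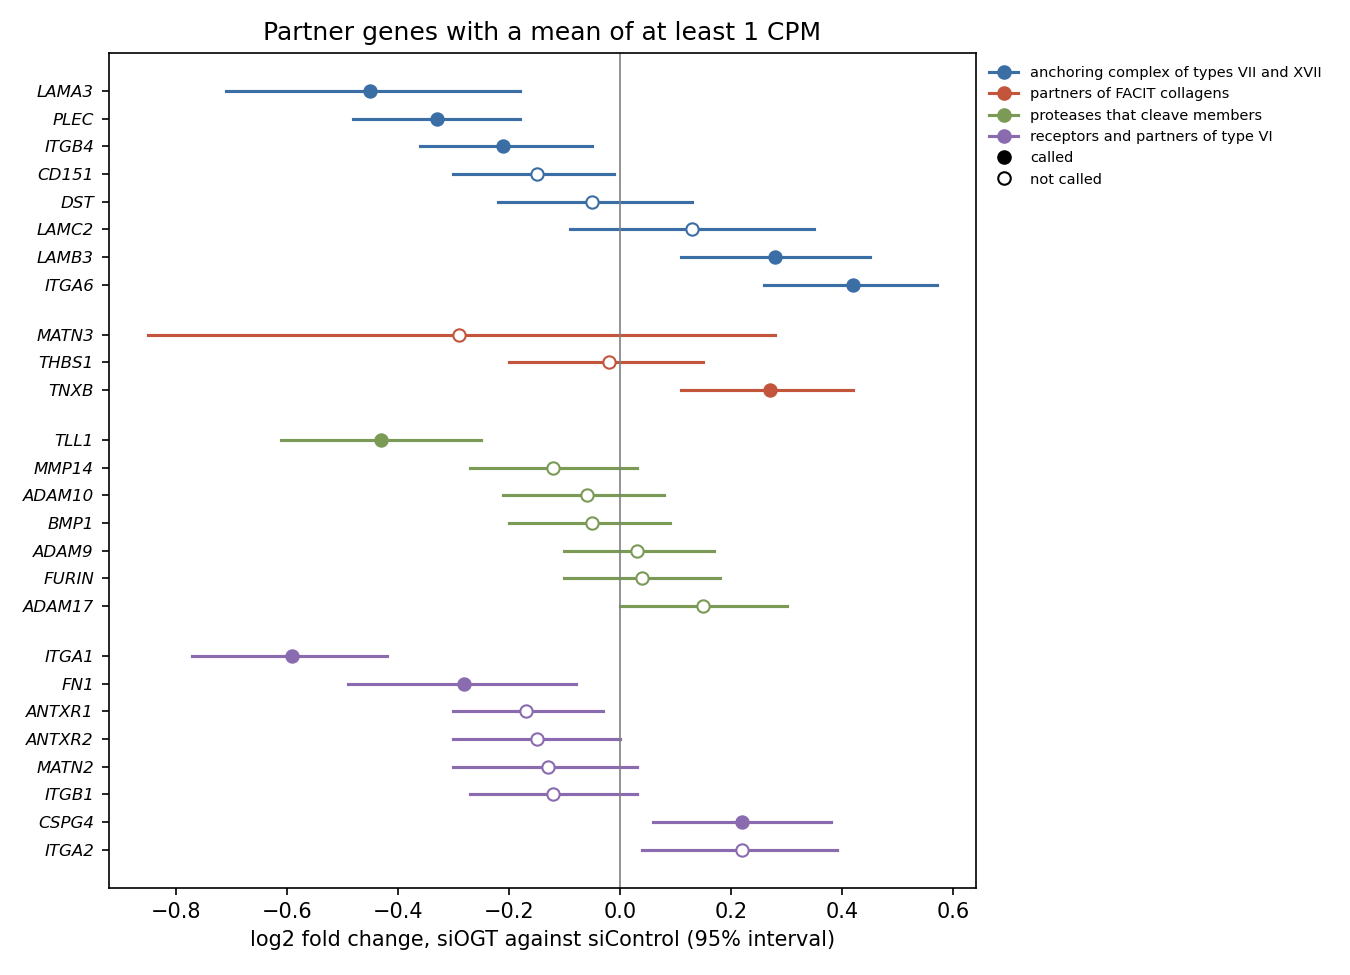
Log2 fold change of siOGT against siControl with its 95% confidence interval (horizontal axis) for genes of 4 partner lists averaging at least 1 CPM, filled where called. Called genes of the anchoring complex lay on both sides of 0, while TLL1 was the only protease called.

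Markers of other liver cell types were measured beside the members. The 3 hepatocyte markers measured summed to 3.22 to 5.11 CPM in siControl and 4.98 to 9.32 CPM in siOGT, with ALB at most 0.113 CPM in a library. The 4 cholangiocyte markers summed to 88.6 to 126 CPM and 93.1 to 127 CPM, mostly from SOX9, with EPCAM at most 0.107 CPM. The 3 macrophage or leukocyte markers summed to 131 to 159 CPM and 174 to 212 CPM, mostly from CD68, with PTPRC between 0.339 and 0.844 CPM. Of these 3 lists CYP2E1 and CD68 were called higher, as seen after the test, and no measured marker was at 0 in every library. The listed markers TTR (hepatocyte) and MARCO (macrophage) had no entry and were not measured. Their part in the results for the collagen genes was not tested.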

How the data were processed

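RNA was sequenced from 6 LX-2 libraries after oligo-dT enrichment. Per the study's methods and processing notes, the authors aligned reads to hg38 with Bowtie2 2.3.5.1 and deposited one table of RSEM 1.3.1 expected counts per library, not normalized. Their table of DESeq2 1.36.0 results (mean counts, log2 fold changes, adjusted p-values) was not used. Here expected counts were rounded, genes with a total below 10 were removed (2054 genes, 0.00447% of counts), and 14853 were then compared by the quasi-likelihood F test (two-sided) of edgeR 4.0.16 (R 4.3.3) with TMM factors (0.979 to 1.02) and the replicate number as a block, with Benjamini-Hochberg adjustment. CPM were scaled by total and TMM factor (marker CPM by total alone), pair ratios on the log2 scale used a prior count of 2, and SE and intervals were derived from the F statistic. Between 85.8% and 87.7% of values in a library were whole.

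Same-numbered libraries are pairs in the study's methods. Their deviations from group means (12373 genes averaging at least 1 CPM) correlated by 0.69, 0.53 and 0.33. Libraries of a group differed beyond counting noise (chi-square per degree of freedom at least 19.4). Ratios of type VI genes were tested by exact permutation of signs over pairs. Coordinates and exon lengths are from GENCODE 44 (15906 of 16907 symbols found).

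Members, partner lists, marker lists, motifs and tests were chosen with earlier results of these data known. The text names all members, OGT, up to 3 called genes of each partner list with the smallest adjusted p among genes averaging at least 1 CPM, and the 3 genes most correlated with the called member of smallest adjusted p. Other genes were named after their values were seen. Alternatives were the fit without the block, DESeq2 1.42.0 with the block, median-ratio factors, library totals, no filter, filterByExpr, a GC and length correction (mgcv 1.9.3), leaving out each pair, unrounded against rounded ratios, and longest-transcript length. The fit was checked on simulated counts.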

Additional observations from a re-analysis of the deposited data

How the results depend on the processing

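The 10 members gave 100 results under 10 alternatives, of which 84 kept direction and call, 15 lost the call and 1 reversed. Without the replicate block 1 member was called lower in place of 9. The adjusted p-values of the others ranged from 0.0590 for COL6A3 to 0.618 for COL6A2, and 8 of the 15 lost calls arose there. The other 7 were losses of COL8A1 and COL13A1. The log2 fold change of COL17A1 ranged from -0.59 to 0.02 when a pair was left out, reversing without replicate 3. Leaving out 1 pair gave from 7 to 9 members called lower, and no alternative called a member higher. Without the block, 0 genes of each partner list were called in either direction. Type VI partners called lower numbered 1 with library totals, filterByExpr or DESeq2, and 1 to 3 when a pair was left out. Those called higher numbered 2 with library totals or no filter, and 0 to 2 when a pair was left out. Of the anchoring complex, DESeq2 called 1 lower, and leaving out a pair gave 1 to 2 lower and 1 to 2 higher. The FACIT partner called higher was lost with DESeq2 (0) and gave 0 to 1 when a pair was left out. The cause was not tested. Per kb of longest transcript, COL8A1 had 75.5, COL12A1 58.7, COL6A1 26.1, COL6A2 18.2, COL16A1 3.90, COL13A1 4.81 and COL6A3 0.357 CPM, since that length is shorter than the union of exons. Depth limits COL17A1 and COL6A3, and fits without a pair rest on 2 pairs.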
